A study of Homo sapiens with 6 samples.

Results

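Fibroblast growth factors (FGFs) are secreted proteins that signal through receptor tyrosine kinases. A ligand binds its receptor together with heparan sulfate, the receptors pair and phosphorylate each other, and the adaptor FRS2 carries the signal to GRB2, SOS, RAS and the RAF, MEK and ERK kinases, which induce early genes and the inhibitors that dampen the pathway. In skeletal muscle precursors FGF signaling is known for keeping cells in division and out of differentiation, and FGFR4 is a receptor that myoblasts and rhabdomyosarcoma cells typically express. The genes described here are the 10 rows of the deposited count table whose symbol is FGF1, FGF2, FGF5, FGF7, FGFR1, FGFR2, FGFR3, FGFR4, FGFRL1 or FRS2, chosen by name from the 58735 rows of the table. All 10 passed the filter on low counts that left 15935 tested genes, FGF7 through its counts in 1 group alone. Identifiers and positions are those of GENCODE 44 on GRCh38.

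The cells were RD, an established human embryonal rhabdomyosarcoma line. All 6 samples had been transduced with lentiviral particles, which carried a scrambled shRNA in the 3 control samples and an shRNA against TAK1 in the 3 knockdown samples. TAK1, the product of MAP3K7, is a kinase that relays cytokine and growth factor signals to NF-kB and the JNK and p38 kinases. The sequenced knockdown cells carried 1 shRNA sequence against TAK1 in 1 cell line, so effects of that sequence other than TAK1 loss cannot be told apart from it here. The labels do not say that samples of a group came from separate cultures, so p-values measure the spread between these samples, which may be technical. Poly(A) RNA was sequenced and total counts ran from 28839898 to 34469323 per sample. Levels are given as CPM, the counts of a gene in each 1000000 counts, scaled by the trimmed mean of M-values (TMM), and a gene was called higher or lower when edgeR's adjusted p was under 0.05 and its log2 fold change was at least 0.25 in size. MAP3K7 itself had 2214, 2408 and 2392 counts in the control samples and 892, 1188 and 987 counts in the knockdown samples, a log2 fold change of -1.30 ± 0.062 (SE; edgeR adjusted p = 4.45e-14). Of 9 muscle markers, 7 were tested, with 3 higher (42.9%, beside 11.8% of all tested genes) and 1 lower (14.3%, beside 11.3%). Of the 7 estimates, 6 were positive. The summed level of the 9 was 1885 to 1918 CPM in control and 1809 to 1870 CPM in knockdown samples. The gene called lower, CHRNA1, was the most abundant of them, at means of 921 CPM in control and 700 CPM in knockdown samples. MYF5 was at 0 in all 6 samples, whereas MYOD1, the muscle regulator that marks these tumors, was present at a mean of 263 CPM in control samples. None of 10 markers of blood, endothelial, epithelial, liver, glial or neural crest cells passed the filter, and their summed level was 0.422 to 0.584 CPM in control and 0.308 to 0.623 CPM in knockdown samples.

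The windows around annotated starts of the genes that the results turn on are printed first, since the ligands FGF1 and FGF5 fell together, FGFR3 was the receptor called higher and FGFR4 was the most abundant receptor. From RefSeq (GRCh38.p14), 18 windows of 300 bases, 250 before and 50 after a start, were taken for 9 of the 10 genes. Each was searched on both strands for the letters TGANTCA (AP-1), GGAATG (TEAD), CAGCTG (E-box), GGGCGG (SP1), GCGTGGGCG (EGR1) and CCGGAAGT (ETS). Capitals mark every match, and a match on the opposite strand appears as its reverse complement, such as CCGCCC for SP1. Which windows are printed was decided after the matches were seen, and counts per gene do not show which start the cells used.
FGF1, window 4 of 4, chr5:142644190-142644489, minus strand: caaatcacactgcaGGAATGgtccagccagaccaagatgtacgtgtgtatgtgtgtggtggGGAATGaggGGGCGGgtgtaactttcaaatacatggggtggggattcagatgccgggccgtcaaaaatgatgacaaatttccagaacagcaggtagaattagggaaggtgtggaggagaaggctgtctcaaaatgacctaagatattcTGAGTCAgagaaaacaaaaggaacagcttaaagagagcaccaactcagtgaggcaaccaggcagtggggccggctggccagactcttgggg
FGF5, window 1 of 2, chr4:80266338-80266637, plus strand: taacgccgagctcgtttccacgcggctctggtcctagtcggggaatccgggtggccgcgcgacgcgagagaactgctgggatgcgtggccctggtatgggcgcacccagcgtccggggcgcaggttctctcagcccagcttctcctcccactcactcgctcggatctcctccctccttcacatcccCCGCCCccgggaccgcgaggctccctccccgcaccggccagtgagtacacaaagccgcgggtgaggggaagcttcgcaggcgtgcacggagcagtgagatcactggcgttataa
FGFR3, chr4:1793043-1793342, plus strand: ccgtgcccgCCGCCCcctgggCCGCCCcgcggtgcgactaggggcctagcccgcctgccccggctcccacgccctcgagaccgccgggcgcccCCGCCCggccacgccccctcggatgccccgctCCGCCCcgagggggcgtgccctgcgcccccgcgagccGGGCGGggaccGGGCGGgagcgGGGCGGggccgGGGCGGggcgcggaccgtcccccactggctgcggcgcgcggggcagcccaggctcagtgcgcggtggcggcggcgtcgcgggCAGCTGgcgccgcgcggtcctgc
FGFR4, window 1 of 2, chr5:177086665-177086964, plus strand: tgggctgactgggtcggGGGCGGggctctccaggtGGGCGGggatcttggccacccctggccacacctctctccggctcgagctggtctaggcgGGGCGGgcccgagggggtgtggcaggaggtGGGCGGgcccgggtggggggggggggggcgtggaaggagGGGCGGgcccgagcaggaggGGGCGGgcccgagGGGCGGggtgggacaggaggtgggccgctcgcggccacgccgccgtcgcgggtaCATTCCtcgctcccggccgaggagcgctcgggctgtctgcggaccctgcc

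The AP-1 letters occurred in 1 of the 18 windows, the FGF1 window printed above, where the match starts 41 bases before the annotated start. Over all 35116 RefSeq windows of this length 7.71% held them. That FGF1 window also holds the TEAD letters at 2 places, 236 and 189 bases before the start. The TEAD letters occurred in 4 windows of 3 of the genes and in 14.0% of all windows. The SP1 letters occurred in 10 windows of 8 genes against 45.0% of all windows, with 8 matches in the FGFR3 window, 7 in the FGFR4 window and 1 in the FGF5 window. The FGFR3 window had a GC content of 86.3%, the FGFR4 window 78.7%, the FGF5 window 67.0% and the FGF1 window 50.3%. The E-box letters occurred in 4 windows of 3 genes (windows 1 and 2 of FGF1, window 2 of FGF5 and the FGFR3 window) and in 17.9% of all windows. Windows 1 and 2 of FGF1 overlap. The match 50 bases before the start of window 1 and that 99 bases before the start of window 2 are the same site. The ETS letters occurred in 4.14% of all windows and in the FRS2 window. The EGR1 letters occurred in 0 of the 18 windows and in 0.795% of all windows. The FGF7 window (chr15:49422992-49423291, plus strand) held none of the 6 motifs, and its GC content of 40.3% was the lowest of the 18 windows. These matches describe letters and no binding was measured. No window of FGFR1 was among the 18, so the counts of windows and genes leave that receptor out.

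Of the 10 genes, FGF1 and FGF5 were called lower and FGF7 and FGFR3 were called higher in TAK1 knockdown cells. Over all tested genes 11.3% were called lower and 11.8% were called higher, and with 10 genes the 2 in each direction (20%) set nothing apart from that background. The groups did not overlap for 5 of the 10 genes, FGFR4 being the fifth, with 22.2% of all tested genes lower and 21.6% higher without overlap. The median log2 fold change was 0.05 over the 10 genes and 0.02 over all tested genes. The called changes ran in both directions among the ligands, while the abundant receptors FGFR4 and FGFR1 were not called. In bulk RNA a lower level in every cell and fewer cells that express a gene cannot be told apart.

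**Figure D1:**
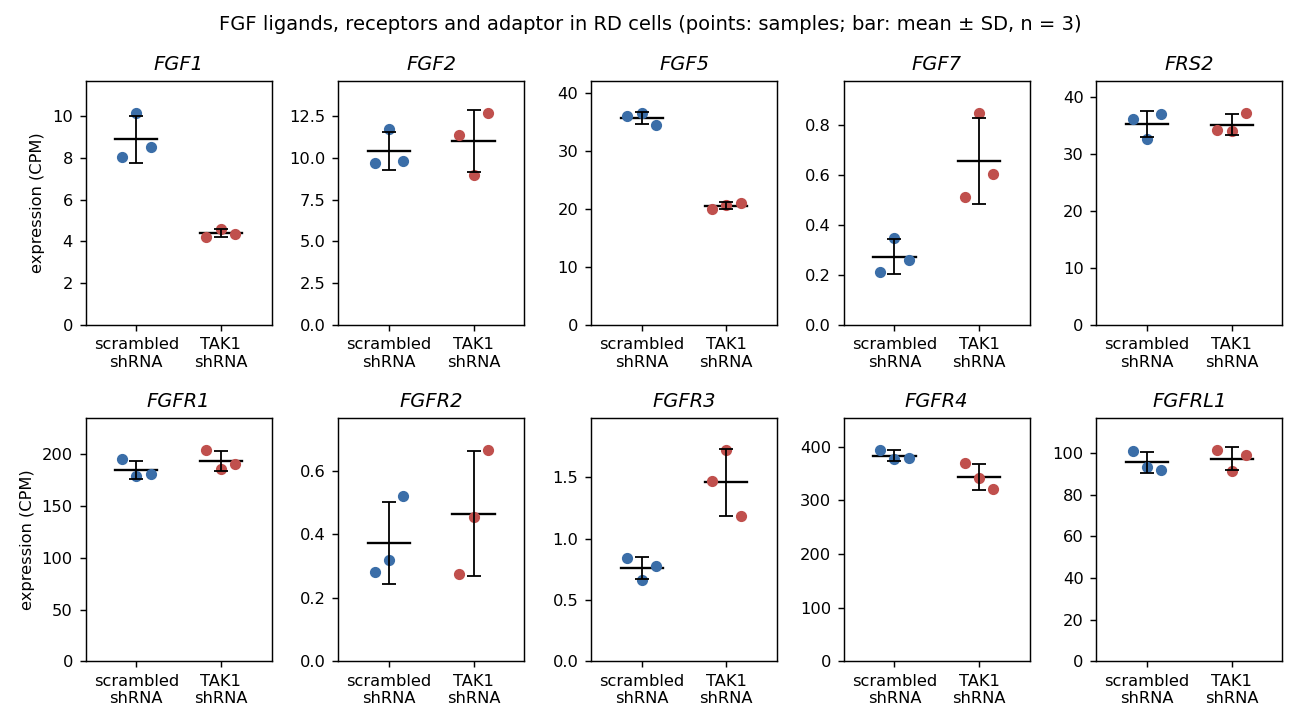
Expression in CPM (vertical axes, each starting at 0) of the 10 genes in the 3 scrambled shRNA samples (blue points) and the 3 TAK1 shRNA samples (red points), with the mean and SD as bars. FGF1 and FGF5 were lower and FGF7 and FGFR3 higher in every TAK1 shRNA sample, and FGFR4 was lower in every TAK1 shRNA sample by a small margin.

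Among FGF1, FGF2, FGF5 and FGF7, the most abundant per length in both groups was FGF5, a secreted FGF known as a regulator of the hair growth cycle. FGF5 (ENSG00000138675, chromosome 4, 80266639 to 80336680, plus strand) stood at 36.0, 36.6 and 34.6 CPM in the control samples and at 19.97, 20.7 and 21.1 CPM in the knockdown samples. The groups were far apart compared with their spread, and the lowest control sample lay above the highest knockdown sample. The mean level fell from 35.8 ± 1.06 to 20.6 ± 0.555 CPM (SD, n = 3 each), for a log2 fold change of -0.80 ± 0.071 (SE; edgeR adjusted p = 2.68e-09). Its 95% interval ran from -0.94 to -0.65. This was the lowest adjusted p of the 10 genes.

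FGF1, or acidic FGF, binds all of the signaling receptors and lacks a classical secretion signal. FGF1 (ENSG00000113578, chromosome 5, 142592178 to 142698070, minus strand) was measured at 8.02, 10.2 and 8.50 CPM in control samples and at 4.21, 4.59 and 4.36 CPM in knockdown samples. Every knockdown sample lay well below every control sample, and the 3 knockdown samples lay closer together than the controls. The mean fell from 8.89 ± 1.12 to 4.38 ± 0.191 CPM (SD, n = 3 each), which is 2.03-fold lower, with a log2 fold change of -1.02 ± 0.13 (SE; edgeR adjusted p = 1.21e-06). The interval, -1.29 to -0.75, overlapped that of FGF5. The 228 to 320 counts in control and 123 to 162 counts in knockdown samples were fewer than those of FGF5, which had 1025 to 1154 and 584 to 732. FGF1 and FGF5 were called lower under all 14 alternatives fitted to single genes.

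FGF2, or basic FGF, is a mitogen for myoblasts and also lacks a classical secretion signal. FGF2 (ENSG00000138685, chromosome 4, 122826682 to 122898236, plus strand) had 9.67, 11.7 and 9.79 CPM in control samples and 11.4, 8.97 and 12.7 CPM in knockdown samples. The groups overlapped, and both the highest and the lowest value came from knockdown samples. The log2 fold change was 0.08 with a 95% interval of -0.17 to 0.33 (edgeR adjusted p = 0.678), an interval that does not reach the changes of FGF1 and FGF5. A stretch of 804 bases, 11.8% of the FGF2 exons, overlaps exons of NUDT6 on the opposite strand, and whether the counting used strand is not given in the sources used here. NUDT6 had 74 to 117 counts in control and 125 to 159 counts in knockdown samples (log2 fold change 0.39, edgeR adjusted p = 0.102).

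FGF7, keratinocyte growth factor, is made by mesenchymal cells and acts on the epithelial form of FGFR2. FGF7 (ENSG00000140285, chromosome 15, 49423237 to 49488775, plus strand) had only 6, 11 and 8 counts in control samples and 15, 30 and 20 counts in knockdown samples. The lowest knockdown sample lay above the highest control sample. The mean rose from 0.273 ± 0.0701 to 0.656 ± 0.174 CPM (SD, n = 3 each), for a log2 fold change of 1.25 ± 0.46 (SE; edgeR adjusted p = 0.0379). Because the gene passed the filter through its knockdown counts alone, a difference in this direction was favored by the filter. The call was lost with DESeq2 (adjusted p = 0.0621), with no filter (adjusted p = 0.0703) and without control replicate 1, 2 or 3 or knockdown replicate 2 or 3 (adjusted p = 0.0614 to 0.175). FGF7P6, a transcribed pseudogene copy on chromosome 9, has 293 annotated exonic bases, beside 6516 for FGF7. It was counted at 4, 2 and 8 in control and 7, 17 and 21 in knockdown samples and did not pass the filter. Their sequences were not compared here, so the split of reads between both genes is uncertain.

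**Figure D2:**
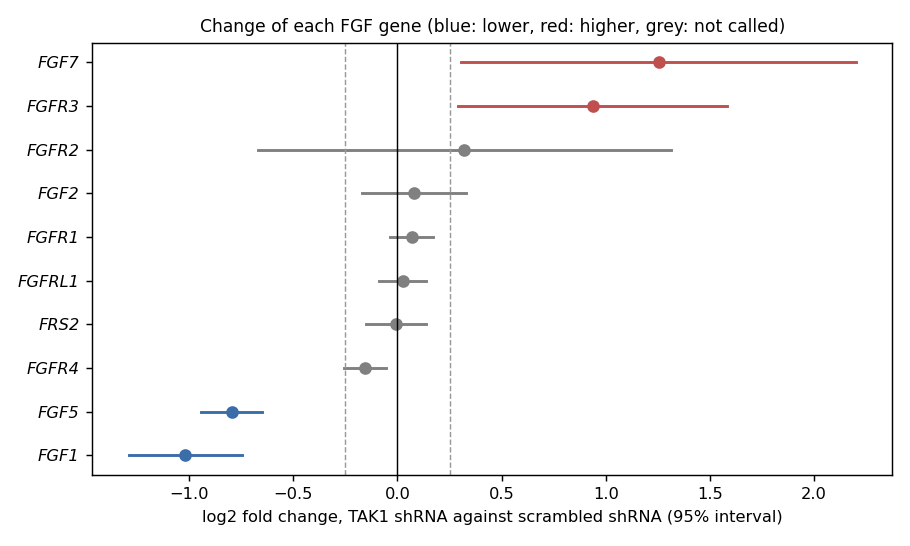
Log2 fold change of TAK1 shRNA against scrambled shRNA (horizontal axis) for each of the 10 genes, with points for the edgeR estimate, lines for its 95% interval and dashed lines at the fold threshold of 0.25 in each direction. FGF1 and FGF5 lie below the lower threshold with intervals clear of it. The intervals of FGF7 and FGFR3 are wide and start just above the upper threshold, at 0.30 and 0.29. Those of FGF2, FGFR1, FGFR2, FGFRL1 and FRS2 cross 0.

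The 4 signaling receptors differed more from each other than between the groups. FGFR4 (ENSG00000160867, chromosome 5, 177086905 to 177098144, plus strand) was measured at 395, 378 and 378 CPM in control samples and at 369, 342 and 321 CPM in knockdown samples. All 3 knockdown samples were lower than all 3 control samples, by a margin that was narrow between the nearest samples. The log2 fold change of -0.16 ± 0.048 (SE; edgeR adjusted p = 0.0143) passed the adjusted p but not the fold threshold, so FGFR4 was not counted as called. Its 95% interval was -0.26 to -0.06, and the adjusted p ranged from 0.000335 to 0.0846 over the 14 alternatives.

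FGFR1 (ENSG00000077782, chromosome 8, 38400215 to 38468834, minus strand), the receptor for FGF1 and FGF2 in many mesenchymal cells, had 195, 179 and 181 CPM in control and 205, 186 and 190 CPM in knockdown samples. The groups overlapped, and the log2 fold change was 0.07 with an interval of -0.04 to 0.17 (edgeR adjusted p = 0.328). Exons of LETM2 and another gene on the opposite strand share 525 bases, or 3.05%, of the FGFR1 exons.

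FGFR3 (ENSG00000068078, chromosome 4, 1793293 to 1808872, plus strand), known for its restraint of cartilage growth, had 24, 21 and 24 counts in control samples and 43, 61 and 39 counts in knockdown samples. The groups did not overlap, and knockdown replicate 2 was the highest. The mean rose from 0.763 ± 0.0896 to 1.46 ± 0.273 CPM (SD, n = 3 each), for a log2 fold change of 0.94 ± 0.31 (SE; edgeR adjusted p = 0.0231). Without control replicate 2 or 3 or knockdown replicate 2 the adjusted p was 0.0847, 0.0555 and 0.105, and the call was lost. FGFR2 (ENSG00000066468, chromosome 10, 121478332 to 121598458, minus strand) was scarcer still, with 8, 10 and 16 counts in control and 8, 16 and 22 counts in knockdown samples. Its log2 fold change of 0.32 had an interval from -0.67 to 1.31 (edgeR adjusted p = 0.661), so neither a rise nor a fall of FGFR2 was detectable at this depth.

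FGFRL1 (ENSG00000127418, chromosome 4, 1009936 to 1026898, plus strand) resembles the receptors outside the cell but lacks the kinase domain. It stood at 101, 93.5 and 92.0 CPM in control and 102, 91.2 and 98.9 CPM in knockdown samples, which overlapped (log2 fold change 0.03, interval -0.09 to 0.14, edgeR adjusted p = 0.765). FRS2 (ENSG00000166225, chromosome 12, 69470349 to 69579793, plus strand), the adaptor that docks on activated receptors, had 36.2, 32.6 and 37.1 CPM in control and 34.2, 34.0 and 37.2 CPM in knockdown samples. The log2 fold change of FRS2 was -0.01 with an interval of -0.15 to 0.14 (edgeR adjusted p = 0.961). For both genes the interval excluded changes as large as the fold threshold in either direction.

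Levels of different genes were compared as CPM per kilobase of exon, with the exons of all GENCODE 44 transcripts of a gene merged. In control samples the order was FGFR4 at 79.7 ± 2.01, FGFRL1 at 22.0 ± 1.11, FGFR1 at 10.7 ± 0.530, FGF5 at 6.00 ± 0.179, FRS2 at 4.87 ± 0.323, FGF1 at 1.79 ± 0.226 and FGF2 at 1.53 ± 0.171 CPM per kilobase (SD, n = 3 each). FGF1 and FGF2 were the neighbors in that order that lay within their spread. Below them came FGFR3 at 0.157 ± 0.0185, FGF7 at 0.0419 ± 0.0108 and FGFR2 at 0.0198 ± 0.00680 CPM per kilobase. In knockdown samples the order changed at a pair of places. FRS2, at 4.85 ± 0.251, stood above FGF5, at 3.45 ± 0.0931, and FGF2, at 1.62 ± 0.277, stood above FGF1, at 0.880 ± 0.0384 CPM per kilobase. With the longest transcript as the length, FGFR1 stood above FGFRL1 in the control samples, at 29.7 ± 1.47 against 26.2 ± 1.33 CPM per kilobase, since the merged FGFR1 exons span 17.2 kb and its longest transcript 6216 bases.

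As a share of the counts per kilobase on FGFR1 to FGFR4, FGFR4 held 87.7%, 88.2% and 88.0% in control samples and 86.3%, 86.4% and 85.5% in knockdown samples. The groups did not overlap. The mean share was 87.96% ± 0.259 in control and 86.0% ± 0.493 in knockdown samples (SD, n = 3 each), 1.91 percentage points apart (two-sided exact permutation p = 0.1, the smallest that 3 against 3 samples can give). FGFR1 made up most of the rest, 11.8% ± 0.249 and 13.6% ± 0.531. With the longest transcript as the length, FGFR4 held 80.5% and 77.9%, and without division by length it held 67.4% and 63.7%. The level of this share thus depends on the length used, while its direction did not.

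Among FGF1, FGF2, FGF5 and FGF7, the share of FGF2 was 15.6%, 17.3% and 16.0% in control samples and 28.1%, 22.6% and 29.3% in knockdown samples. Every knockdown sample was higher, with means of 16.3% ± 0.898 and 26.6% ± 3.59 (SD, n = 3 each; two-sided exact permutation p = 0.1). The exact tests were adjusted over the 8 shares computed at this length, of the 4 receptors and the 4 ligands. The Benjamini-Hochberg adjusted p of these exact tests was 0.114 for FGFR4 and FGF2. It was also 0.114 for FGFR1, FGFR3, FGF1, FGF5 and FGF7, and 0.6 for FGFR2. FGF5 remained the largest share, 64.2% ± 2.37 in control and 57.1% ± 2.09 in knockdown samples, while FGF1 went from 19.0% ± 1.40 to 14.6% ± 1.04 and FGF7 from 0.445% ± 0.0912 to 1.67% ± 0.488. The CPM level of FGF2 did not pass the test, while FGF1 and FGF5, which with FGF7 make up the rest of the sum, were at lower levels and FGF7 at a higher one. The summed level of the 4 ligands was 9.36 ± 0.534 CPM per kilobase in control and 6.05 ± 0.277 in knockdown samples, and that of the 4 receptors was 90.7 ± 2.55 and 83.1 ± 5.49.

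**Figure D3:**
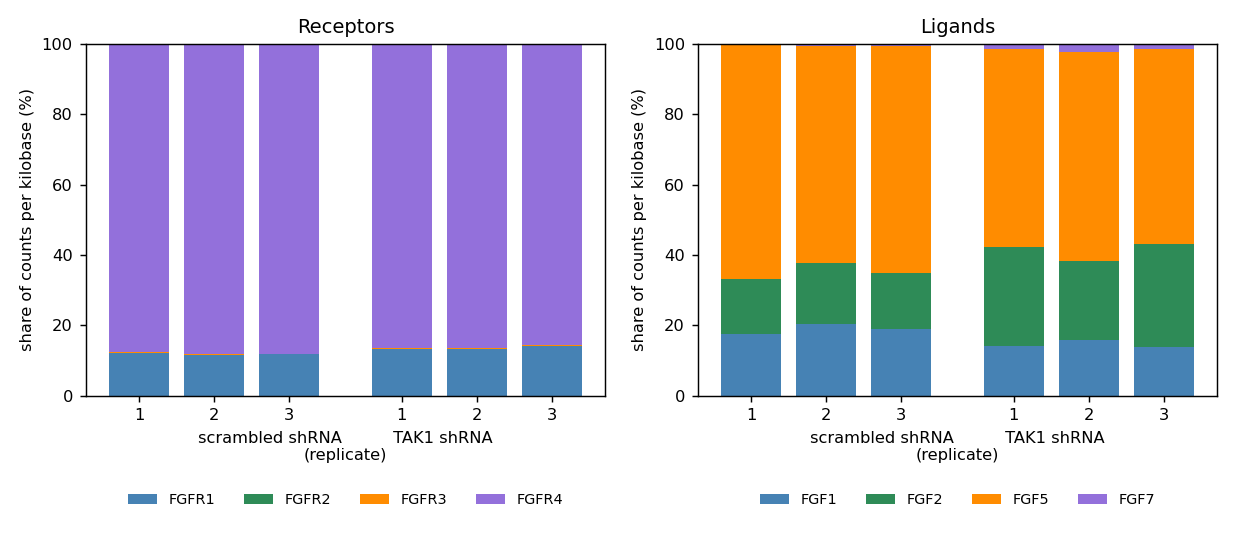
Share of the counts per kilobase (vertical axis, percent) held by each of the 4 receptors (left) and the 4 ligands (right), with 1 stacked bar for each sample. FGFR4 holds over 85% of the receptor counts per kilobase of merged exons in all 6 samples. The FGF2 section is taller in each TAK1 shRNA sample, at 22.6% to 29.3% against 15.6% to 17.3% in the scrambled shRNA samples.

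The other genes of the pathway were taken from lists written by hand. Of 18 other FGF ligands, 12 had any count and 4 were tested, and 0 were called in either direction by edgeR. The lowest unadjusted p of these 4 was 0.0937, so 0 were under 0.05. FGF13, an intracellular FGF that binds sodium channels rather than the receptors, was the most abundant of them, at 84.0 ± 3.04 CPM in control and 81.0 ± 2.00 CPM in knockdown samples. Per kilobase it stood at 4.05 ± 0.147 CPM in control samples, below FGF5, and at 3.91 ± 0.0967 CPM in knockdown samples, above FGF5. FGF8, a ligand of limb and brain patterning, had means of 0.592 and 0.939 CPM (edgeR adjusted p = 0.194), FGF9 had 1.09 and 1.23 CPM, and FGF11 had 2.91 and 2.54 CPM.

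Of 13 co-receptors and binding proteins, 8 were tested. Of these, 3 were called lower (37.5%, beside 11.3% of all tested genes) and 0 higher (beside 11.8%). The median log2 fold change was -0.33. Without knockdown replicate 1, or with library size alone, 1 was higher. L1CAM, a cell adhesion molecule that can engage FGF receptors, fell from 132 ± 1.20 to 86.8 ± 5.51 CPM (log2 fold change -0.60, edgeR adjusted p = 1.86e-09). FLRT1, a transmembrane protein that binds FGFR1, fell from 11.0 ± 0.550 to 7.34 ± 0.380 CPM (log2 fold change -0.59, edgeR adjusted p = 0.000128). IL17RD, the membrane inhibitor also called Sef, fell from 490 ± 11.1 to 348 ± 18.6 CPM (log2 fold change -0.49, edgeR adjusted p = 5.32e-09) and was the most abundant gene of the list. The 3 that fell thus include both partners and an inhibitor of the receptors. The alpha-klotho gene KL, the co-receptor for the hormone FGF23, did not pass the filter.

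Of 13 heparan sulfate proteoglycans 11 were tested, with 2 called higher (18.2%, beside 11.8% of all tested genes), 2 lower (18.2%, beside 11.3%), 7 not called and a median log2 fold change of 0.07. Without knockdown replicate 2 the counts were 3 higher and 1 lower, SDC1 at a log2 fold change of -0.23 being under the fold threshold, and without knockdown replicate 3 they were 2 higher and 3 lower. The syndecans SDC4, from 40.4 ± 0.544 to 26.0 ± 2.76 CPM (log2 fold change -0.64, edgeR adjusted p = 2.65e-07), and SDC1, from 232 ± 8.97 to 191 ± 15.0 CPM (log2 fold change -0.28), fell. The glypicans GPC1, from 559 ± 25.1 to 718 ± 48.1 CPM (log2 fold change 0.36, edgeR adjusted p = 1.91e-06), and GPC2, from 23.6 ± 0.411 to 31.5 ± 1.59 CPM (log2 fold change 0.42), rose. Of 23 enzymes that build or trim heparan sulfate, 17 were tested, with 1 higher (5.88%), 2 lower (11.8%) and a median of 0.02. Over all tested genes 11.8% were higher and 11.3% lower. Without control replicate 3 or knockdown replicate 2, 2 enzymes were higher. HS3ST3B1, a 3-O-sulfotransferase, fell from 33.1 ± 0.756 to 20.1 ± 1.48 CPM (log2 fold change -0.73, edgeR adjusted p = 3.63e-08), and EXT1, a chain polymerase, fell with a log2 fold change of -0.30. SULF1, which removes 6-O-sulfates from heparan sulfate, rose from 58.7 ± 1.86 to 84.1 ± 6.36 CPM (log2 fold change 0.52, edgeR adjusted p = 1.89e-07). NDST1, the most abundant enzyme of the list, had means of 303 and 278 CPM, with a log2 fold change of -0.13 under the fold threshold.

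All 25 adaptors and relay kinases were tested, with 5 lower (20%, beside 11.3% of all tested genes) and 3 higher (12%, beside 11.8%). The median log2 fold change was -0.05. MAP2K1, which encodes the ERK kinase MEK1 and was the most abundant gene of the list, fell from 728 ± 5.61 to 360 ± 7.32 CPM, a log2 fold change of -1.02 ± 0.041 (SE; edgeR adjusted p = 1.94e-15). NRAS fell from 209 ± 1.14 to 113 ± 1.21 CPM (log2 fold change -0.88, edgeR adjusted p = 1.78e-13). PTPN11, the phosphatase SHP2 that binds FRS2, fell from 166 ± 2.28 to 119 ± 6.10 CPM (log2 fold change -0.48, edgeR adjusted p = 3.25e-08). BRAF rose from 34.4 ± 1.82 to 42.4 ± 3.98 CPM (log2 fold change 0.30, edgeR adjusted p = 0.00196), as did SOS1 (log2 fold change 0.25) and PIK3CA (log2 fold change 0.27). SOS1 and PIK3CA are named after their values were seen, to complete the count of genes called higher, and both lay close to the fold threshold. Without knockdown replicate 3 the log2 fold changes of SOS1 and PIK3CA were 0.17 and 0.22, and 1 gene of the list was called higher.

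The list of genes that FGF signaling induces, with the inhibitors that feed back on it, moved most. All 21 were tested and 15 were called lower, 71.4% of the list beside 11.3% of all tested genes, with a median log2 fold change of -0.59 and 20 of 21 estimates negative. EGR1, an early response transcription factor, stood at 71.1, 68.9 and 71.8 CPM in control and 30.3, 25.3 and 29.3 CPM in knockdown samples (log2 fold change -1.32, edgeR adjusted p = 1.71e-13). DUSP6, the phosphatase that switches off ERK, fell from 547 ± 7.21 to 261 ± 2.32 CPM (log2 fold change -1.07, edgeR adjusted p = 1.31e-15) and was the most abundant gene of the list. SPRY4, a Sprouty inhibitor of the RAS pathway, fell from 288 ± 11.5 to 149 ± 6.41 CPM (log2 fold change -0.95), and CCND1, the gene of cyclin D1, fell from 211 ± 4.81 to 111 ± 5.57 CPM (log2 fold change -0.93). MYC was the 1 gene called higher, from 227 ± 4.59 to 285 ± 6.07 CPM (log2 fold change 0.33, edgeR adjusted p = 1.66e-06), and is named after its values were seen. These genes also respond to receptors other than those of FGF, and the lists were written with earlier results of these data known. The summed level of this list was 2925 to 3013 CPM in control and 2073 to 2145 CPM in knockdown samples, while that of the 10 FGF genes was 742 to 782 CPM and 688 to 748 CPM, where the groups overlapped.

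**Figure D4:**
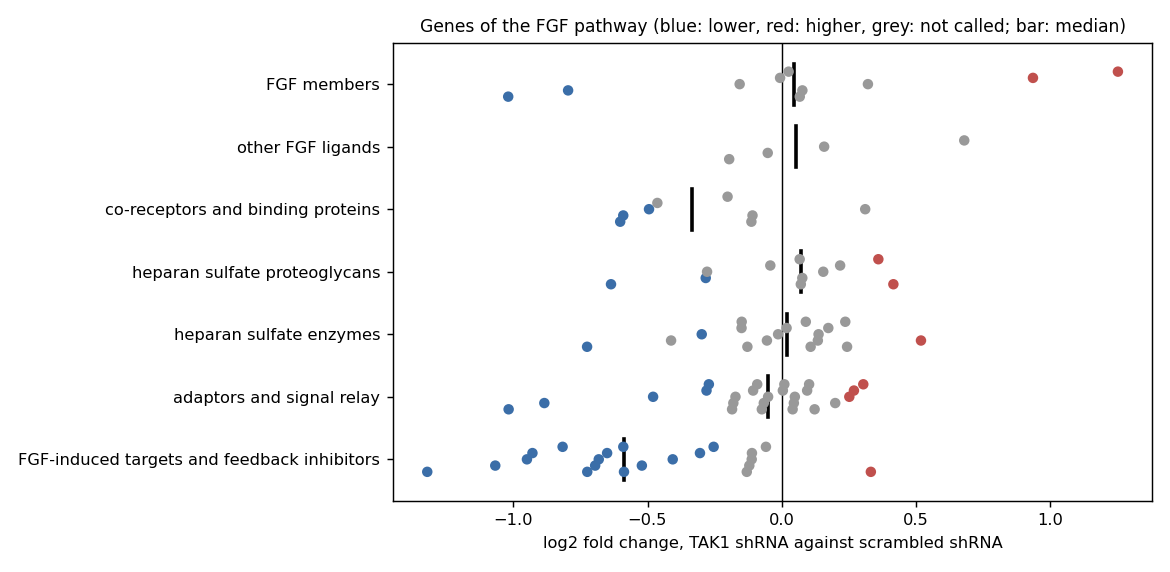
Log2 fold change of TAK1 shRNA against scrambled shRNA (horizontal axis) for each tested gene of the 7 lists (rows), with blue points for genes called lower, red for higher and grey for not called, and a black bar at the median of each list. The induced targets and feedback inhibitors lie to the left of 0 except for 1 gene, with a median of -0.59, while the 10 FGF genes spread to both sides with a median of 0.05.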

How the data were processed

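The authors removed reads with adaptors or of low quality, aligned the rest to GRCh38 with STAR after CASAVA base calling, and deposited raw counts of reads per gene without normalization. The counter, annotation release and strand use are not given in the sources used here. All value columns were matched to a sample by name. Samples were grouped by their labels, 3 in each group.

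Counts were compared with edgeR 4.0.16 in R 4.3.3 (default expression filter, TMM scaling, the quasi-likelihood test and Benjamini-Hochberg adjustment across all 15935 tested genes). The thresholds on adjusted p and fold change are those of the authors' methods. The SE is that of the log2 fold change, and the common biological coefficient of variation was 5.67%. Total counts per sample of 28839898 to 34469323 leave counting error above that spread only for genes with few counts, such as FGF7, FGFR2 and FGFR3. The same held for FGF1 in the knockdown samples, at 123 to 162 counts. It also held in control replicates 1 and 3 for FGF1 (228 and 262 counts) and FGF2 (275 and 302 counts). DESeq2 1.42.0, limma 3.58.1 (voom), other normalizations, other filters on low counts, other fold thresholds, a block for the replicate number and the removal of 1 sample at a time were alternatives. Shares were compared with a two-sided exact permutation test (scipy 1.17.1). On simulated data over 15678 genes edgeR recovered 94 of 100 genes changed by 1 and 88 of 100 changed by 0.5 on the log2 scale, with 9 false calls. The changed genes were drawn only from those with higher counts than FGF7, FGFR2 and FGFR3 had on average. The recovery rates therefore do not cover these 3 genes.

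The 10 genes, the pathway lists and the marker lists were chosen with earlier results of these data known. By rule the text names the 10 genes, MAP3K7, the tested FGF ligands, and from each pathway list the most abundant gene and up to 4 called genes with the largest changes, plus the 3 genes whose levels followed the member of lowest adjusted p most closely. Genes outside that rule, chosen after their values were seen, are KL, MYC, SOS1, PIK3CA, CHRNA1 and the ligands below the filter. NUDT6 and LETM2 are named for exons that overlap one of the 10 genes, and FGF7P6 as a pseudogene copy of FGF7. MYOD1 and MYF5 come from the marker lists. Some genes of the list of adaptors and relay kinases are not reported by name here.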

Additional observations from a re-analysis of the deposited data

How the results depend on the processing

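FGF1 and FGF5 were called lower under every alternative that was run, and FGFR4 joined them only with no fold threshold, which gave 3 genes lower. The count of FGF genes called higher fell from 2 to 1 with DESeq2, with no filter on low counts and with at least 10 counts required in every sample, where FGF7 was not tested. Leaving out 1 sample gave 0 to 2 such genes, 0 without control replicate 2 or 3 or knockdown replicate 2. The estimates of 4 genes that were not called changed sign. FGF2 ran from -0.051 to 0.21, FGFR2 from -0.034 to 0.63, FGFRL1 from -0.0069 to 0.069 and FRS2 from -0.061 to 0.031 on the log2 scale when 1 sample was left out. FRS2 was also at 0.011 with upper-quartile normalization and 0.042 with library size alone, and the cause was not tested. Both shares kept their direction under all 9 alternatives.

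The median log2 fold change of all tested genes was 0.02 with TMM and 0.07 with library size alone. Samples with the same replicate number deviated together only weakly (correlations of 0.016 to 0.037), though 5 of 6 samples were closest to their own number. The numbers were not used as pairs in the main fit because the authors' methods name no such block. With a replicate block 2 FGF genes were still called higher and 2 lower, and over all genes the calls were 1942 higher and 1848 lower, against 1879 and 1805 without it. The block also took SOS1 under the fold threshold, leaving 2 relay genes higher of 3, as did relative log expression normalization, DESeq2, limma voom and no filter. With library size alone the proteoglycans had 3 genes higher and 1 lower, the heparan sulfate enzymes 2 and 1, and the relay genes 3 and 3, and with a fold threshold of 0.5 they had 0 and 1, 1 and 1, and 0 and 2. Of the induced targets and feedback inhibitors, 12 to 16 were lower under all alternatives. Depth limits FGF7 and FGFR2, which had at most 30 counts in any sample.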

Other observations

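Of the other FGF ligands that did not pass the filter, several had a few counts. FGF6, a ligand of the skeletal muscle lineage, had 8, 1 and 6 counts in control samples and 0, 0 and 1 counts in knockdown samples. FGF17 had 0, 0 and 3 counts in control and 8, 6 and 2 counts in knockdown samples, FGF18 had 6, 3 and 8 against 9, 10 and 13, and FGF22 had 9, 20 and 10 against 8, 10 and 5. These counts were not tested, and 6 of the 18 other ligands were at 0 in all 6 samples.

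Over the 6 samples the levels most like that of FGF5, the FGF gene of lowest adjusted p, were those of C12orf49, NUDT4 and MBNL1, each with a Pearson r of at least 0.999 on the log2 CPM scale. All 6 samples share the contrast between the groups, and 1195 tested genes had an r above 0.95, so the likeness is a description. C12orf49 was at 101 CPM in control and 73.0 CPM in knockdown samples, NUDT4 at 134 and 83.1, and MBNL1 at 126 and 74.3.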
